A study of Mus musculus with 2 samples.

Results

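Follistatin, its relatives, the inhibin and activin subunits and the activin receptors were followed in the mouse uterus on day 8 of pregnancy. The group was defined by gene symbol, by a rule that uses no measured value but was written with earlier results of these data known, as the binding proteins Fst, Fstl1 and Fstl3, the subunits Inha, Inhba and Inhbb and the receptors Acvr1, Acvr1b, Acvr2a and Acvr2b. These are 10 of the 12393 genes that have their own probe set, and they are covered by 16 of the 22690 probe sets on the array. RNA came from the uterine wall between implantation sites, where no embryo is attached, of 4-month-old females on a mixed C57Bl/6J and OLA129 background. One array was hybridised with RNA labelled control and one with RNA labelled Cbs null, from females homozygous for loss of cystathionine beta-synthase, the enzyme that joins homocysteine to serine. The labels do not name the Cbs allele, the genotype of the control at that locus, or whether a sample was 1 animal or a pool. With 1 array per group no difference has a replicate check and no test is given.

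Activins are secreted dimers of inhibin beta subunits, while a dimer of an alpha and a beta subunit is an inhibin, which opposes activin. Activin binds a type II receptor kinase, which recruits and activates a type I receptor kinase, and this phosphorylates SMAD proteins that enter the nucleus with SMAD4. Follistatin wraps around activin and keeps it from its receptors, and it is made by uterine stroma as that tissue decidualizes in early pregnancy.

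The arrays shared one overall scale, with median signals of 74.55 (control) and 75.6 (Cbs null). A floor of 43.2 (the 40th percentile of the pooled signals) replaced every weaker signal, since differences among dim probe sets cannot be trusted. A gene counted as measured when it was above the floor on at least 1 array, and where the other array was under it the fold is only a lower bound. Log2 ratios are those of Cbs null over control. Their technical SD, found by comparing paired probe sets within genes, was 0.18 where both probe sets were at least 4 times the floor (1272 genes) and 0.24 where the weaker one was dimmer (1485 genes). That SD covers only what differs between probe sets of a gene on the same arrays. Errors they share, as from labelling or hybridisation, have no part in it, nor do differences between mice. It is not the spread of repeated arrays. Cbs itself read 79.8 in control and 42.6, just under the floor, in Cbs null, and its second probe set read 39.8 and 25.1, under the floor on both arrays. Which part of the gene was altered is not given in the sources used here, so whether these probe sets lie in it is unknown.

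Fst was lower in the Cbs null sample, and it was the member with the widest difference. The other binding proteins were also below 0 in log2 ratio but short of 2-fold, and Inhba had only a bound. Inha, Inhbb, Acvr1 and Acvr1b lay within 1 technical SD of 0. Acvr2a and Acvr2b were above 0 by less than 2-fold. All 10 members were measured, 9 of them above the floor on both arrays. Counted at their values against the floor, 1 member was at least 2-fold lower, beside a background of 0.714% of the 8409 measured genes, and at least 2-fold higher were 0 members, beside 0.797%. Of the 10 log2 ratios, 6 were below 0, against 46.5% of all measured genes. Among the 6 was Inhba, measured through the control array alone, so its direction was fixed by the measuring rule. Inha and Acvr1, also among the 6, were within 1 technical SD of 0. Against the floor, Fst was also the 1 member at least 1.5-fold lower and the 1 member at least 3-fold lower. These sizes were reached in that direction by 3.41% and 0.262% of measured genes. Inhba, known only as a bound, may pass 1.5-fold. The median was -0.08 for the members, Inhba included, and 0.02 for all measured genes.

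**Figure D1:**
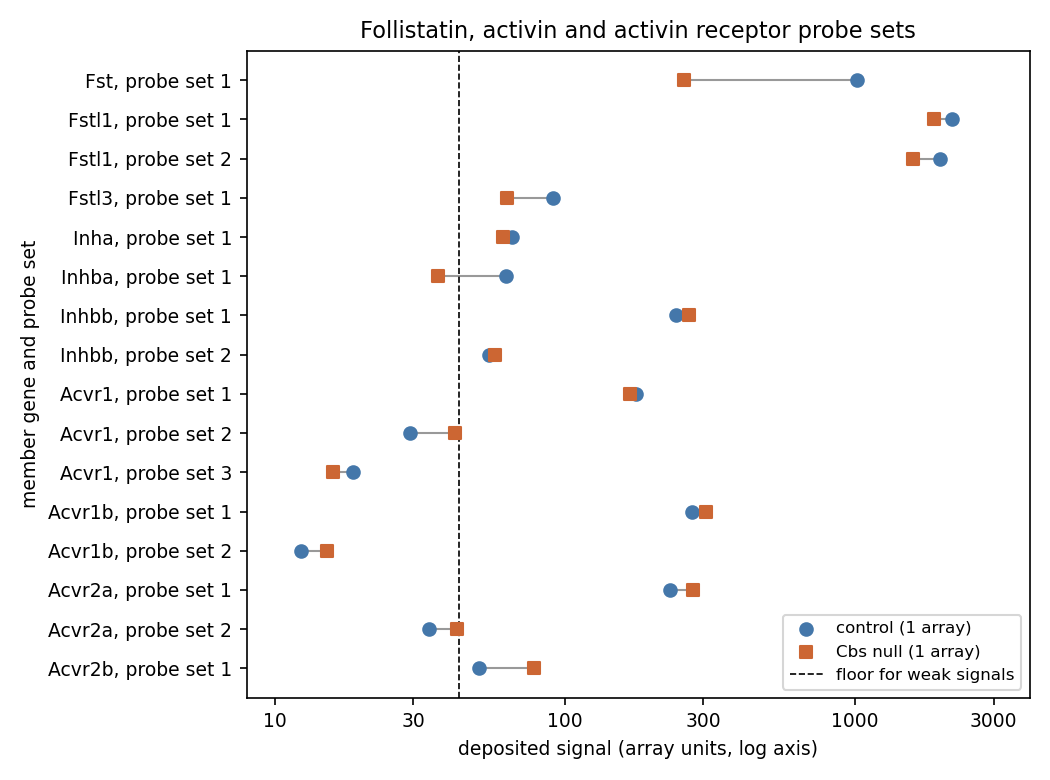
Deposited signal (log axis, array units) of each of the 16 member probe sets on the control array (circles) and the Cbs null array (squares), with 1 array per group and the dashed line at the floor of 43.2. Fst moves from 1011.7 to 256.2, whereas the points of most other probe sets nearly touch.

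Fst, the activin-binding glycoprotein follistatin, read 1011.7 signal units in control and 256.2 in Cbs null. Both values were well above the floor, at 23.4 and 5.93 times it. The signal was therefore 3.95-fold lower in Cbs null, a log2 ratio of -1.98 ± 0.18 (technical SD, 1 array per group). Of the 8409 measured genes, 16 had a lower log2 ratio and 26 lay further from 0 in either direction. Among the 2806 measured genes whose signal was within 2-fold of that of Fst, 4 had a lower ratio. These ranks count ratios against the floor. Of the 8409 genes, 7942 were above the floor on both arrays, and the ratios of the rest are only bounds. Some of those may lie further from 0 than Fst, such as Gzmc, which stood at -1.55 with signals of 126.2 in control and 6.5 in Cbs null. The array carried a single Fst probe set, so no second probe set bears on the value. In a piece of tissue, fewer cells of a type and less RNA per cell cannot be told apart.

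Fstl3 encodes a close relative of follistatin that also binds activin. It read 91.1 in control and 62.9 in Cbs null, 2.11 and 1.46 times the floor. The log2 ratio was -0.53 ± 0.24, or 1.45-fold lower, and 8.70% of measured genes lay at least as far from 0. Its single probe set leaves that value without a second reading.

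Fstl1, a secreted glycoprotein that shares the follistatin domain, was covered by 2 bright probe sets. The brighter read 2155.9 in control and 1874.6 in Cbs null, and the other read 1962.1 and 1582.3. Both were lower in Cbs null, with log2 ratios of -0.20 and -0.31, which is 1.15-fold and 1.24-fold. Of all measured genes, 41.8% lay at least as far from 0 as the brighter probe set. The binding proteins had 3 of 3 log2 ratios below 0, beside 46.5% of all measured genes. The log2 ratio of Fst minus that of Fstl1 was -1.78.

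Among the subunits, Inhba, whose product dimerises into activin A, was weak. It read 62.5 in control and 36.5, under the floor, in Cbs null, so it was at least 1.45-fold lower, a log2 ratio of -0.53 against the floor. It counted as measured only through the control array, so the direction of its ratio was fixed by that rule. Inhbb, the subunit of activin B, was brighter. Its probe sets read 241.5 and 54.6 in control and 267.5 and 57.2 in Cbs null, with log2 ratios of 0.15 and 0.07. The brighter ratio was smaller than 1 technical SD. Inha, the alpha subunit that turns a beta subunit into an inhibin, read 65.6 in control and 60.9 in Cbs null, a log2 ratio of -0.11 ± 0.24. Inha and Inhbb were thus short of 2-fold, while the size of the Inhba difference is known only as a bound.

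No receptor reached 2-fold, and Acvr2b was the one furthest from 0. Acvr2b, a type II receptor that binds activin and related ligands, read 50.5 in control, barely above the floor, and 78.3 in Cbs null. It was 1.55-fold higher, a log2 ratio of 0.63 ± 0.24, and 5.60% of measured genes lay at least as far from 0. It rested on a single probe set, and among the 3052 measured genes within 2-fold of its signal 140 had a higher ratio. It was the 1 member at least 1.5-fold higher, a size that 3.64% of measured genes reached in that direction.

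Acvr2a, the other type II activin receptor, read 229.9 in control and 276.9 in Cbs null, a log2 ratio of 0.27 ± 0.18. A second Acvr2a probe set read 34.0 and 42.6, under the floor on both arrays. Acvr1b, the type I receptor through which activin acts on SMAD2 and SMAD3, read 275.1 in control and 305.6 in Cbs null, a log2 ratio of 0.15 ± 0.18. Its second probe set was at 12.3 and 15.1, under the floor. Acvr1, a type I receptor used mainly by BMPs, read 175.0 in control and 167.7 in Cbs null, a log2 ratio of -0.06 ± 0.24. Its other probe sets, at 29.2 and 18.6 in control and 41.9 and 15.8 in Cbs null, were under the floor on both arrays. The receptors had a median log2 ratio of 0.21, with 3 of 4 above 0, beside 53.3% of all measured genes. Of the 3, Acvr1b was within 1 technical SD of 0.

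**Figure D2:**
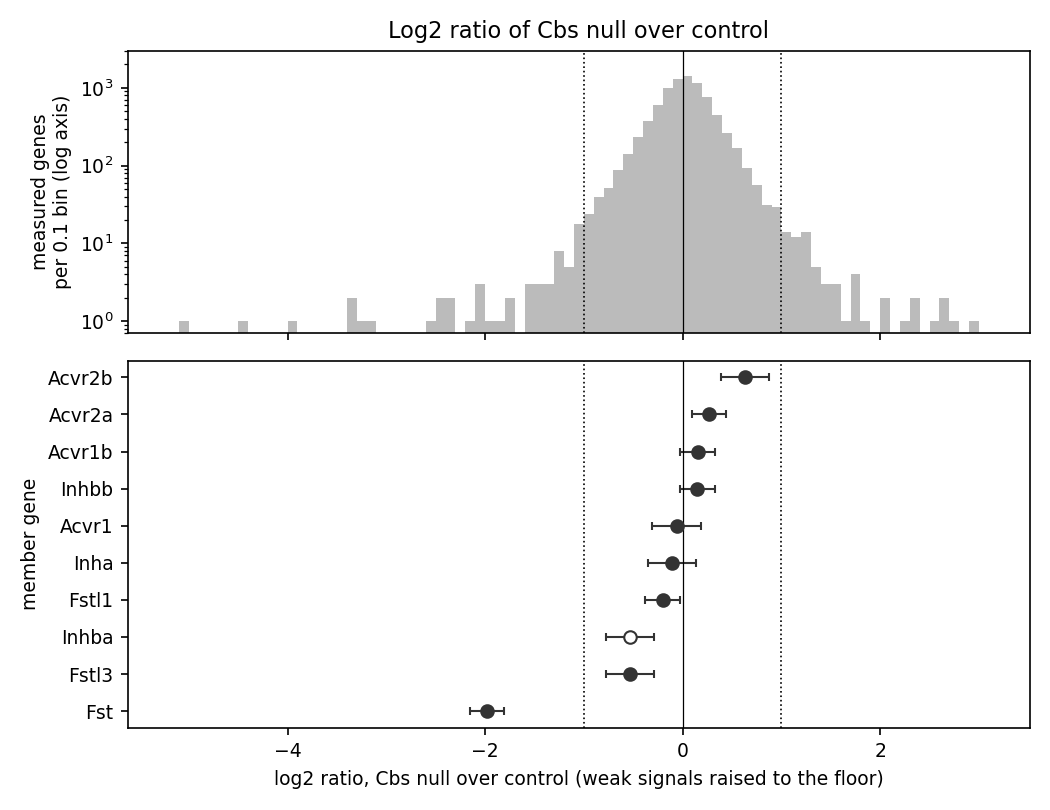
Upper panel, number of measured genes per bin of log2 ratio of Cbs null over control (log axis). Lower panel, the ratio of each member with a bar of 1 technical SD, the open circle marking Inhba, which is below the floor in Cbs null, and dotted lines at 2-fold. Fst at -1.98 lies among the lowest of 8409 genes, some of which have ratios that are only bounds. The other 8 members measured on both arrays lie between -0.53 and 0.63.

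Set against one another, the members were uneven. Over the 8 other members above the floor on both arrays, the log2 ratio of Fst minus that of the other member ran from -1.45 for Fstl3 to -2.61 for Acvr2b. Inhba, under the floor in Cbs null, gives no such difference. The difference was -2.13 from Inhbb and -2.13 from Acvr1b, the activin subunit and the type I activin receptor that gave bright signals. With 1 array per group, whether such differences exceed the spread between mice cannot be told.

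The rest of the pathway showed no gene that differed as far as Fst. Of 103 further genes listed for the activin, BMP and TGF-beta branches, 81 had a probe set of their own and 58 were measured. At least 2-fold lower were 0 and at least 2-fold higher were 0 of the 58, beside 0.714% and 0.797% of all measured genes. Their median log2 ratio was 0.07, with 23 below 0 and 35 above, beside 46.5% and 53.3% of all measured genes.

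Of 11 other ligands, receptors and co-receptors of the activin and Nodal branch on the array, 3 were measured. Lefty1, an inhibitor of Nodal, read 81.2 in control and 95.5 in Cbs null. Bambi, a decoy receptor without a kinase, read 96.1 and 107.0. Tgfbr3, betaglycan, the co-receptor for inhibin and TGF-beta, read 191.9 and 169.4, a log2 ratio of -0.18. The activin subunits Inhbc and Inhbe, Nodal, its co-receptors Tdgf1 and Cfc1, the type I receptor Acvr1c and the ligands Gdf3 and Gdf11 were under the floor on both arrays.

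SMAD proteins and their regulators had 10 of 13 measured log2 ratios above 0, beside 53.3% of all measured genes, and a median of 0.13. Tgif2, a SMAD corepressor, read 121.6 in control and 177.7 in Cbs null, a log2 ratio of 0.55. Ski, another corepressor, read 243.0 and 306.2 (0.33). The BMP-responsive Smad1 read 729.0 and 903.7 (0.31) in its brighter probe set, and its other measured probe set stood at 0.16. Smad2, which carries the activin signal, went the other way, from 115.5 to 86.4, a log2 ratio of -0.42. Smad3 was under the floor on both arrays at 20.4 and 25.0.

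Genes known to respond to activin or TGF-beta through SMAD2 and SMAD3 were split, with 6 of 14 measured below 0 and a median of 0.04. Snai2, a transcriptional repressor of epithelial genes, read 251.6 in control and 139.6 in Cbs null, a log2 ratio of -0.85 and 1.80-fold lower. The fibrillar collagen gene Col1a1 read 4946.2 and 3193.1 (-0.63) and the fibronectin gene Fn1 read 3475.4 and 2297.5 (-0.60), each with a second probe set that was also below 0. Tgfbi, a matrix protein induced by TGF-beta, read 1802.2 and 2635.6, a log2 ratio of 0.55, with 3 further probe sets between 0.37 and 0.43. The feedback genes Smad7 (0.07) and Pmepa1 (0.02), chosen after seeing their values, lay near 0.

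In the BMP branch, ligands, receptors and antagonists had 5 of 12 measured log2 ratios below 0 and a median of 0.02. Bmp4 read 115.4 in control and 174.3 in Cbs null, a log2 ratio of 0.59. Bmp1, a protease that processes procollagen and chordin, read 573.5 and 403.1 (-0.51), and the BMP antagonist gene Chrd read 98.5 and 71.5 (-0.46). Nbl1, another antagonist, stood at 0.24. Bmp2, which decidualization requires, read 155.6 and 158.0. Of 8 measured BMP target genes, 5 were above 0, beside 53.3% of all measured genes. The homeobox gene Msx1 stood highest, at 0.71 in its brighter and 0.31 in its other measured probe set. Wnt4 stood at 0.48 and Id2 at 0.45, while Id1 stood at -0.36.

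TGF-beta ligands, receptors and latency proteins had 5 of 12 measured log2 ratios below 0 and a median of 0.02. Tgfb2 read 295.8 in control and 223.0 in Cbs null, a log2 ratio of -0.41, with 2 further probe sets at -0.37 and -0.27. The endothelial co-receptor gene Eng stood at -0.46 in its brighter probe set but at 0.07 in the other. Acvrl1, a type I receptor of endothelium, stood at 0.32 and the latency protein gene Ltbp1 at 0.30.

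**Figure D3:**
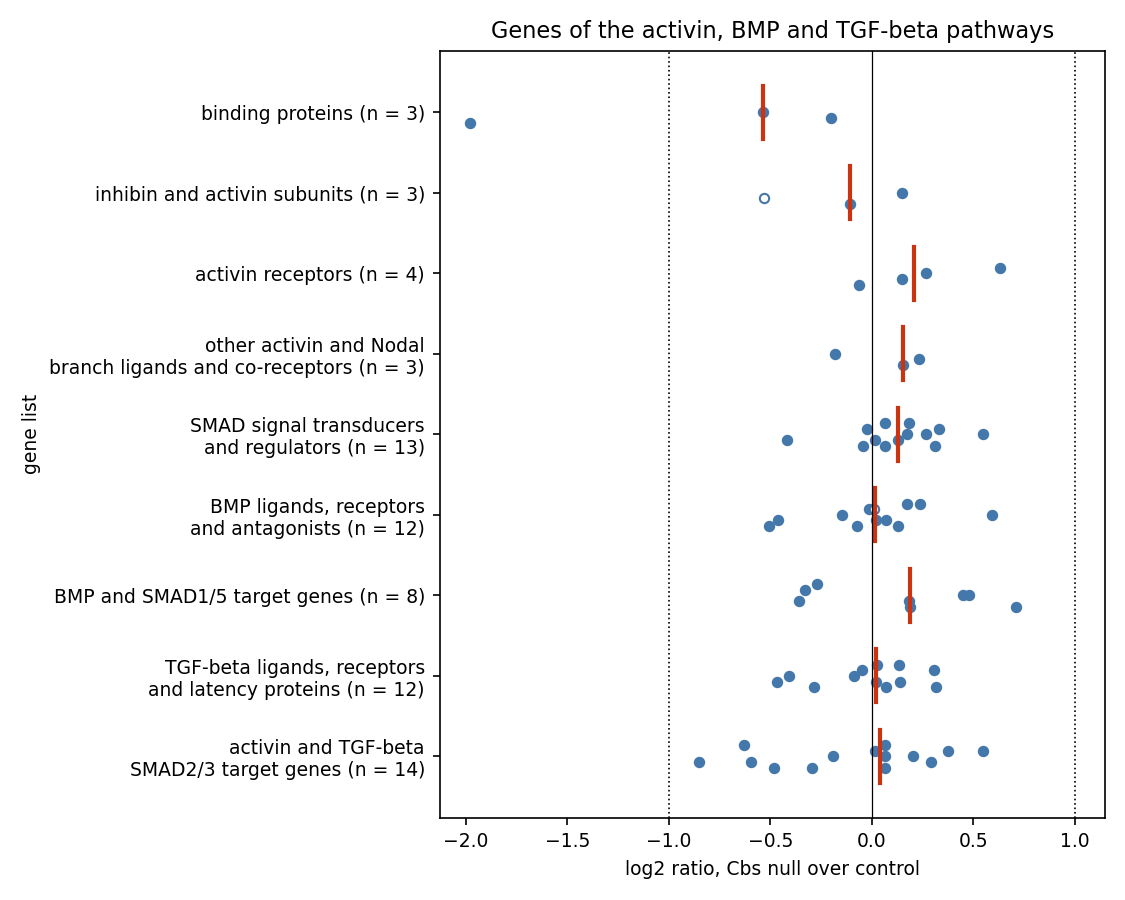
Log2 ratio of Cbs null over control of each measured gene in 9 lists (points; open circles are under the floor on 1 array), with the list median as a vertical bar, dotted lines at 2-fold and n the number measured. Fst is the single point past 2-fold.

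Among the 5673 other genes above the floor on both arrays with a signal within 4-fold of that of Fst, those nearest in log2 ratio were taken as most like it over these 2 arrays. They were the collagen gene Col11a1 (-2.08, a distance of 0.10), the chemokine gene Cxcl14 (-2.13), the nucleosome-binding protein gene Hmgn5 (-1.79), the WNT antagonist gene Sfrp4 (-1.74), the ribonucleotide reductase gene Rrm2 (-2.32) and the serpin gene Serpinb6b (-1.60). Other measured probe sets stood at -1.47 for Col11a1, -2.36 for Cxcl14, and -2.46 and -2.36 for Rrm2. With 1 array per group such likeness is a match of 1 ratio, that of the brightest probe set.

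Markers of several cell types also differed between the samples. Decidual stroma genes, the cells known to make Fst in early pregnancy, had 17 of 20 measured, 11 of them below 0, with a median log2 ratio of -0.12. At least 2-fold lower were Tdo2 (685.3 to 27.4) and Prl8a2 (424.4 to 5.8), and Ptgs2 was at least 1.99-fold lower. These 3 genes and Alpl were measured through the control array alone, so their direction was fixed by the measuring rule, and 13 of the 17 were above the floor on both arrays. Those 13 ran from Des (-0.68), Wnt6 (-0.58), Hsd11b2 (-0.47) and Gja1 (-0.27, with 5 further probe sets between -0.89 and -0.32) through Cebpb, Mmp2, Hoxa11, Bmp2, Hand2, Timp3 and Hoxa10, between -0.12 and 0.19, to Angpt2 (0.35) and Wnt4 (0.48). The summed signal of the list was 15068.1 in control and 11902.4 in Cbs null, and Bmp8a, Erv3 and Cyp11a1 were under the floor on both arrays. The part of decidual cell content in the Fst difference was not tested.

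Smooth muscle genes, each read from its brightest probe set, were below 0 in 12 of 12 measured, with a median of -0.25, a summed signal of 58077.6 against 48400.5, and Actg2 (-0.77), Smtn (-0.70) and Des (-0.68) lowest. A second Des probe set stood at -0.05, and 1 of 3 further Tpm2 probe sets was above 0, at 0.12. Des also stands on the decidual list and Tagln also among the SMAD2 and SMAD3 target genes. Synpo2 was under the floor on both arrays. Uterine epithelium genes were all above 0, 17 of 17 (14 above the floor on both arrays), with a median of 0.63 and a summed signal of 8314.5 against 17354.7, and Calb1 (at least 7.73-fold), Spink1 (5.04-fold) and S100g (4.03-fold) differed most. Calb1, Cldn4 and Muc1 were measured through the Cbs null array alone, so their direction was fixed by the measuring rule. Macrophage and dendritic cell genes were above 0 in 14 of 14, with a median of 0.57, a summed signal of 6370.5 against 9362.8, and C1qa (0.87), C1qc (0.76) and H2-Eb1 (0.73) highest. Endothelial genes had 4 of 10 below 0, a median of 0.08 and a summed signal of 2956.4 against 3209, with Vwf at 0.65, Cldn5 at 0.45 and Kdr at -0.33. The part of these cells in the members' ratios was not tested.

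Natural killer cell genes were measured in 12 of 14 cases, 9 below 0, with a summed signal of 1884.1 in control and 492.7 in Cbs null. The 7 granzyme genes were at least 2-fold lower, led by Gzmd, Gzmg and Gzmf, which share close sequence. All 7 were measured through the control array alone, so their direction was fixed by the measuring rule. The other 5 measured genes, which include Klrd1 and Eomes, lay between -0.22 and 0.52. The highest of these, Klrk1 (40.7 to 61.8), was measured through the Cbs null array alone, so its direction was fixed likewise. The 4 above the floor on both arrays lay between -0.22 and 0.09.

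Granulosa cells of the ovary are known to make Inha, Inhba, Inhbb and Fst. Of 12 granulosa, luteal and oocyte genes on the array, 9 were under the floor in both samples, among them Amh at 2.9 and 2.3 and Fshr at 15.7 and 2.2. The brightest in control, Star, read 63.5 there and 40.8 in Cbs null, Nr5a2 read 42.9 and 58.2, and Akr1c18 read 48.9 and 48.2. The summed signal of the 12 was 240.5 and 204.5, and the part of such cells in the members' signals was not tested. Of 10 trophoblast and embryo genes, 9 were under the floor on both arrays, Hand1 at 24.0 and 16.5 among them, and Ttr was above it in Cbs null alone, at 110.0 against 15.1. The summed signal of these 10 was 114.6 in control and 214.1 in Cbs null.

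**Figure D4:**
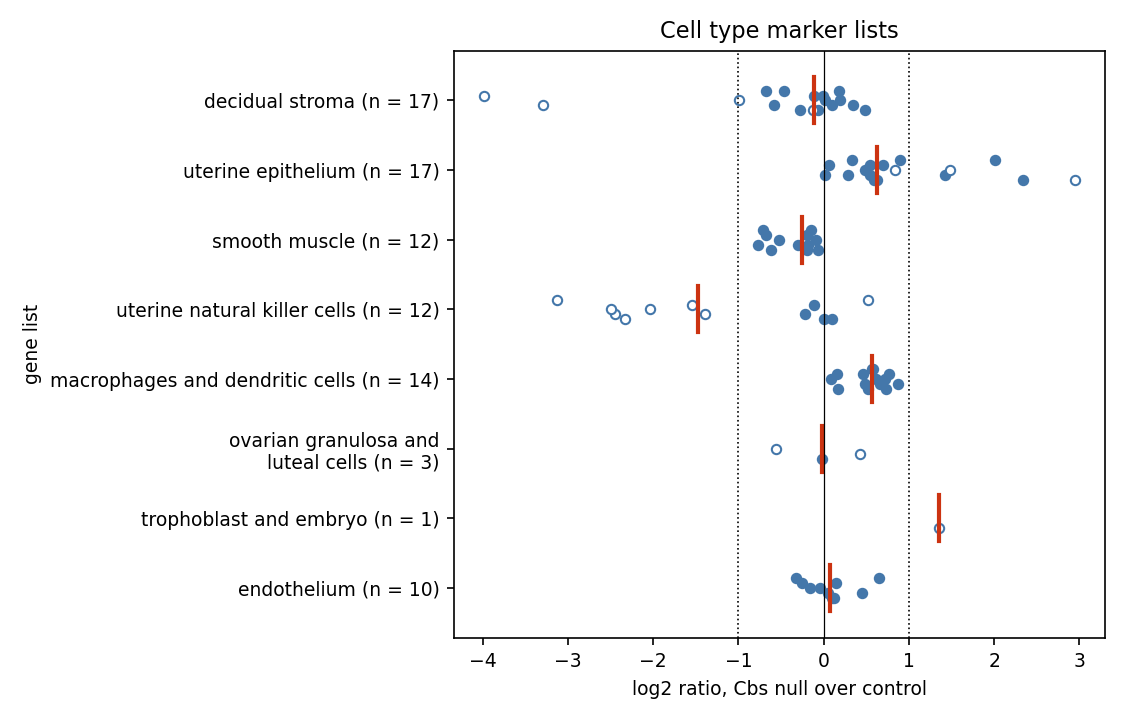
Log2 ratio of Cbs null over control of each measured gene in 8 cell type marker lists (points; open circles are under the floor on 1 array), with the list median as a vertical bar, dotted lines at 2-fold and n the number measured. Decidual stroma genes centre near 0 with Tdo2 and Prl8a2 far below, smooth muscle genes lie below 0, and epithelial and macrophage genes lie above it.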

How the data were processed

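Per the labels' protocols, 2 microg of total RNA per sample was turned into biotinylated cRNA, with 1 array for control and 1 for Cbs null. The deposited table holds 1 linear intensity per probe set and array. GCOS 1.4 is named in the submitters' processing notes, but the method of summarising probes, the scaling target and detection calls are not stated there. The 2% trimmed means were 200.08 and 200.07, so values were used as deposited, and a difference is therefore one from the array's total.

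Of 22626 probe sets other than the 64 controls, the platform annotation gave 1 symbol for 20380, several for 691 and none for 1555. Identifiers of 20351 matched RefSeq (GRCm38.p6), which changed no symbol. Each gene took the value of its brightest 1-symbol probe set, brightness being the mean over both arrays of log2(signal + 16). Log2 ratios used the floor of 43.2, the size rule was 2-fold, and work was done in Python 3.11.15 with pandas 2.3.3. The procedure was tested on simulated data.

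The members and gene lists were chosen with earlier results of these data known. Named genes were the members, Cbs, each pathway gene at least 2-fold apart or otherwise up to 4 per list of widest log2 ratio that exceeded the floor in control and in Cbs null, up to 3 such genes per marker list (measured on at least 1 array), and the 6 genes nearest to Fst. Other list genes are named as list members or as picked out after their values were seen. Alternatives were centring, quantile normalization, a floor at the 20th or 60th percentile, a pseudocount of 16, the mean over probe sets, leaving out _s_at and _x_at probe sets, and thresholds of 1.5-fold and 3-fold. The number of arrays limits the precision.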

Additional observations from a re-analysis of the deposited data

How the results depend on the processing

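Of the 9 alternatives tried, 7 alter the processing rather than the threshold. Under each of these 7, Fst was the 1 member at least 2-fold lower. At the main floor, Fst was also the 1 member lower by the 1.5-fold and by the 3-fold threshold. Its log2 ratio under those 7 alternatives ran from -2.00 to -1.92, but only centring, quantile normalization and the pseudocount could move it. The single Fst probe set lay above every floor, so under the other settings its ratio was bound to stay at -1.98. With 1.5-fold in place of 2-fold, 1 member (Acvr2b) counted as higher. Each member kept the sign of its ratio under every alternative that measured it. With the floor at the 60th percentile, 6 of the 10 members were measured, and Fstl3, Inha, Inhba and Acvr2b gave no value. Inhba ranged from -0.78, with the floor at the 20th percentile, to -0.53. At -0.78 it was past 1.5-fold lower. Some list medians changed sign under that floor, where BMP target genes stood at -0.27, the other activin and Nodal branch genes at -0.18 (also -0.07 with the floor at the 20th percentile) and the subunits at 0.15. The medians of the BMP ligand list (-0.05 to 0.05), the TGF-beta list (-0.01 to 0.03) and the SMAD2 and SMAD3 target list (-0.09 to 0.07) have no settled direction. The count of all genes at least 2-fold lower ran from 31 with the floor at the 60th percentile to 219 with it at the 20th, and at least 2-fold higher from 30 to 248. No paired analysis was possible because each group has 1 array.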

Other observations

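Pathway genes with several measured probe sets, picked out after their values were seen, did not always give one answer. Tgfbr2, the type II TGF-beta receptor, read 2843.7 in control and 2335.5 in Cbs null in its brightest probe set (a log2 ratio of -0.28). Its other measured probe set stood at -0.57. Bmpr1a, a type I BMP receptor, stood at 0.18 in its brightest probe set, while 4 others ranged from -0.23 to 0.04. Smad4, the SMAD shared by both branches, gave 0.27 in its brightest probe set and 0.23 and 0.27 in the others. Ccn1, a matricellular protein gene, stood at -0.48 and -0.62, whereas its relative Ccn2 stood at 0.29 in a single probe set.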
